A study of Mus musculus with 3 samples.

Results

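The cytosolic ribosomal protein genes encode the proteins of the ribosome that works in the cytoplasm. They were taken from the count table by symbol: Rpl or Rps followed by a number, with or without an a, x, l or l1 ending, together with Rplp0, Rplp1, Rplp2 and Rpsa, and without the pseudogene rows that end in -ps. The rule found 84 of the 44788 rows, 51 of the large subunit and 33 of the small subunit. Counts were present for 82 of them, and all 82 passed the filter on low counts. Rpl10l and Rpl3l had 0 counts in each of the 3 libraries. Rps3a1, Rpl36al and Fau, which also encode ribosomal proteins, fall outside the symbol rule and are given separately.

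RNA was measured by ribosomal-RNA-depleted bulk sequencing on the Ion Proton in primary chondrocytes, the matrix-producing cells of cartilage, which came from C57BL/6 knee joint cartilage. The 2 libraries named cKO carried Col2a1-CreERT2;Kdm6b f/f and the 1 control library carried Kdm6b f/f alone. Kdm6b encodes a demethylase of lysine 27 on histone H3, and CreERT2 is a recombinase that 4-hydroxytamoxifen activates, here placed under the promoter of the cartilage collagen Col2a1. Both genotypes were kept in 10% serum and exposed for 48 h to 4-hydroxytamoxifen at 1 µM, so all 3 libraries share the floxed alleles and the drug, and the recombinase is found in the cKO libraries alone. The labels do not say whether the cKO libraries came from separate animals or cultures. Sex-linked counts, given with the X-linked members, were of the female pattern in cKO replicate 2 and the male pattern in cKO replicate 1. The pair thus did not share an animal. The p-values reflect no more than the spread of this pair, which includes that difference in sex. Each gene's variance was taken mostly from all genes together, with 22.6 prior degrees of freedom against 1 residual. There is no second control, and the control is assumed to vary as the cKO libraries do.

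A ribosome joins a small subunit, which reads the messenger RNA, to a large subunit, which forms the peptide bond and carries a stalk of acidic proteins that recruits translation factors. Each ribosome holds equal copies of nearly all of its proteins, and cells make them in balance. Most of their messenger RNAs begin with a run of pyrimidines, the TOP motif, through which the kinase mTOR controls their translation. Their introns often hold small nucleolar RNAs (snoRNAs), and their messenger RNAs have left many processed pseudogenes in the genome. Chondrocytes use this machinery to produce large amounts of matrix protein.

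Depth was alike, between 12489738 and 12636471 counts per library. Kdm6b had 1049, 948 and 1289 counts in cKO replicate 1, cKO replicate 2 and the control (edgeR adjusted p = 0.102). Sets of 3 values below keep that order of libraries. Gene-level counts do not show whether those reads span the deleted part. The 8 chondrocyte markers summed to 15040, 14120 and 25120 CPM (counts scaled by TMM-normalised library size), and all 8 were lower in cKO by edgeR's quasi-likelihood test. The leukocyte markers summed to 12.6, 13.0 and 7.82 CPM, with Cd3e and Emr1 at 0, and the fibroblast and synovium markers summed to 388, 294 and 255 CPM. The part of these differences in the results that follow was not tested. In bulk RNA, fewer cells of a type and less RNA per cell cannot be told apart.

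The start sites of members and the copies of 1 member are shown as sequence because both bear on how the values are read. RefSeq promoter windows (GRCm38.p6) were matched for 62 of the 84 members. The windows shown run from 100 bases before to 20 bases after the annotated start, 5′ to 3′ on the transcribed strand. Rps13, Rps16 and Rps6 are shown because their counts fell in cKO, and Rps24 because it was not lower in either cKO library. Capitals mark a match to 1 of 5 strings searched on both strands. CCGGAAG is the core bound by ETS factors such as GABP. The string ATGGCG comes from the YY1 motif. MYC binds the E-box CACGTG. The box of classical core promoters is written TATAAA, and the pyrimidine string is CTCTTTC. None of these strings overlapped in the windows shown. Rps13 is at chr7:116334171-116334290 on the minus strand, Rps16 at chr7:28350589-28350708 on the plus strand, Rps6 at chr4:86857348-86857467 on the minus strand and Rps24 at chr14:24490578-24490697 on the plus strand.
Rps13: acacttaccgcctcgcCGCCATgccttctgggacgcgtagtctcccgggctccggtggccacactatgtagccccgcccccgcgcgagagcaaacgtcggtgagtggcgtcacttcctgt
Rps16: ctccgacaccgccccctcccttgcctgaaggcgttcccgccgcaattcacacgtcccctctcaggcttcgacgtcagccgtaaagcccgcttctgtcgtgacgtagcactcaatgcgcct
Rps6: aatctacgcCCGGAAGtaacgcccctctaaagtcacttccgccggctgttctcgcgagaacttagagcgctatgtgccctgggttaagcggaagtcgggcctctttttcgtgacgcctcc
Rps24: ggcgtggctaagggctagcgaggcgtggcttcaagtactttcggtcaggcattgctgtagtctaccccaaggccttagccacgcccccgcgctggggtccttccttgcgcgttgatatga

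In these windows Rps13 held the reverse complement of the YY1 string, Rps6 held the ETS string, and Rps16 and Rps24 held none of the 5. Over the full windows, 250 bases before to 50 after the start, CCGGAAG was found in 40.3% of the 62 members and in 9.93% of 27025 genes. ATGGCG was found in 33.9% of members and 10.2% of genes, and CTCTTTC in 27.4% and 9.28%. CACGTG was found in 9.68% of members and 8.09% of genes, and TATAAA in 11.3% and 15.7%. A C followed by at least 4 pyrimidines within 3 bases of the annotated start, the form of a TOP motif, was present in 40.3% of members and 13.5% of genes. Members with and without that run had median log2 differences from the control of -0.61 and -0.57 in cKO replicate 1, and of -0.17 and -0.12 in cKO replicate 2. For CCGGAAG the medians with and without were -0.49 and -0.63 in cKO replicate 1 and -0.17 and -0.10 in cKO replicate 2. The members were low in cKO replicate 1 whether or not these strings were present. A match is a description of letters and not of binding.

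As a group, the ribosomal protein genes were lower in cKO than in the control, by a larger amount in cKO replicate 1 than in cKO replicate 2. Their share of all counts was 0.873% in cKO replicate 1 (exact 95% binomial interval 0.868% to 0.878%), 1.10% in cKO replicate 2 (1.10% to 1.11%) and 1.21% in the control (1.20% to 1.21%). These intervals cover counting error only. The small subunit took 0.310%, 0.406% and 0.446% of counts in the same order, and the large subunit 0.563%, 0.698% and 0.760%. Both subunits had the same order of libraries, with cKO replicate 1 lowest and the control highest. Short transcripts of other genes were also low in cKO replicate 1, with a median log2 difference of -0.50 for those of up to 500 bases, and the ribosomal RNA left after depletion took 0.331%, 0.532% and 0.647% of counts. The part of either in the members' difference was not tested.

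Each cKO library was then set against the control on log2 CPM with a prior count of 2. The median over the 82 members was -0.58 in cKO replicate 1, a level of 0.667 of the control, and -0.13 in cKO replicate 2, a level of 0.915. Centred on other genes of like transcript length, the medians were -0.30 and -0.11. Over all 14354 genes with a mean CPM of at least 1, the medians were -0.005 and 0.002. The middle 50% of members lay between -0.77 and -0.35 in cKO replicate 1 and between -0.28 and -0.04 in cKO replicate 2. The small subunit had medians of -0.63 and -0.16, and the large subunit of -0.51 and -0.13. Each of these is 1 library against 1, so the separate differences have no replicate check, and both share the same control library.

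Of the 79 members with a mean CPM of at least 5, 75 were lower than the control in cKO replicate 1, against 49.0% of all 11339 genes at that level. In cKO replicate 2, 65 were lower, against 49.2% of all genes. The control was above both cKO libraries for 63 members, against 36.8% of genes, and below both for 2, Rps24 and Rpl38, against 38.6%. The remaining 14 members had the control between the cKO libraries. With pseudogene rows added, the log2 differences of Rps24 were -0.02 and 0.06 in cKO replicates 1 and 2. Those of Rpl38 were -0.18 and 0.26, so neither gene was then above the control in both. For 72 members cKO replicate 1 was below cKO replicate 2, against 48.8% of genes. A difference of at least 1.5-fold below the control was reached by 38 members in cKO replicate 1 (6.61% of genes) and by 3 in cKO replicate 2 (3.8% of genes). The same 3, Rps13 and Rps12l1 among them, were counted in both libraries (2.21% of genes). At least 1.5-fold above the control was reached by 0 members in cKO replicate 1 (4.7% of genes) and by 0 in both (3.36% of genes). In cKO replicate 2 it was reached by 1, Rpl13 (4.91% of genes). The log2 difference of Rpl13 there was 0.97, or 0.19 with its pseudogene rows added. The downward difference at 1.5-fold was thus found chiefly in 1 of the cKO libraries.

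**Figure D1:**
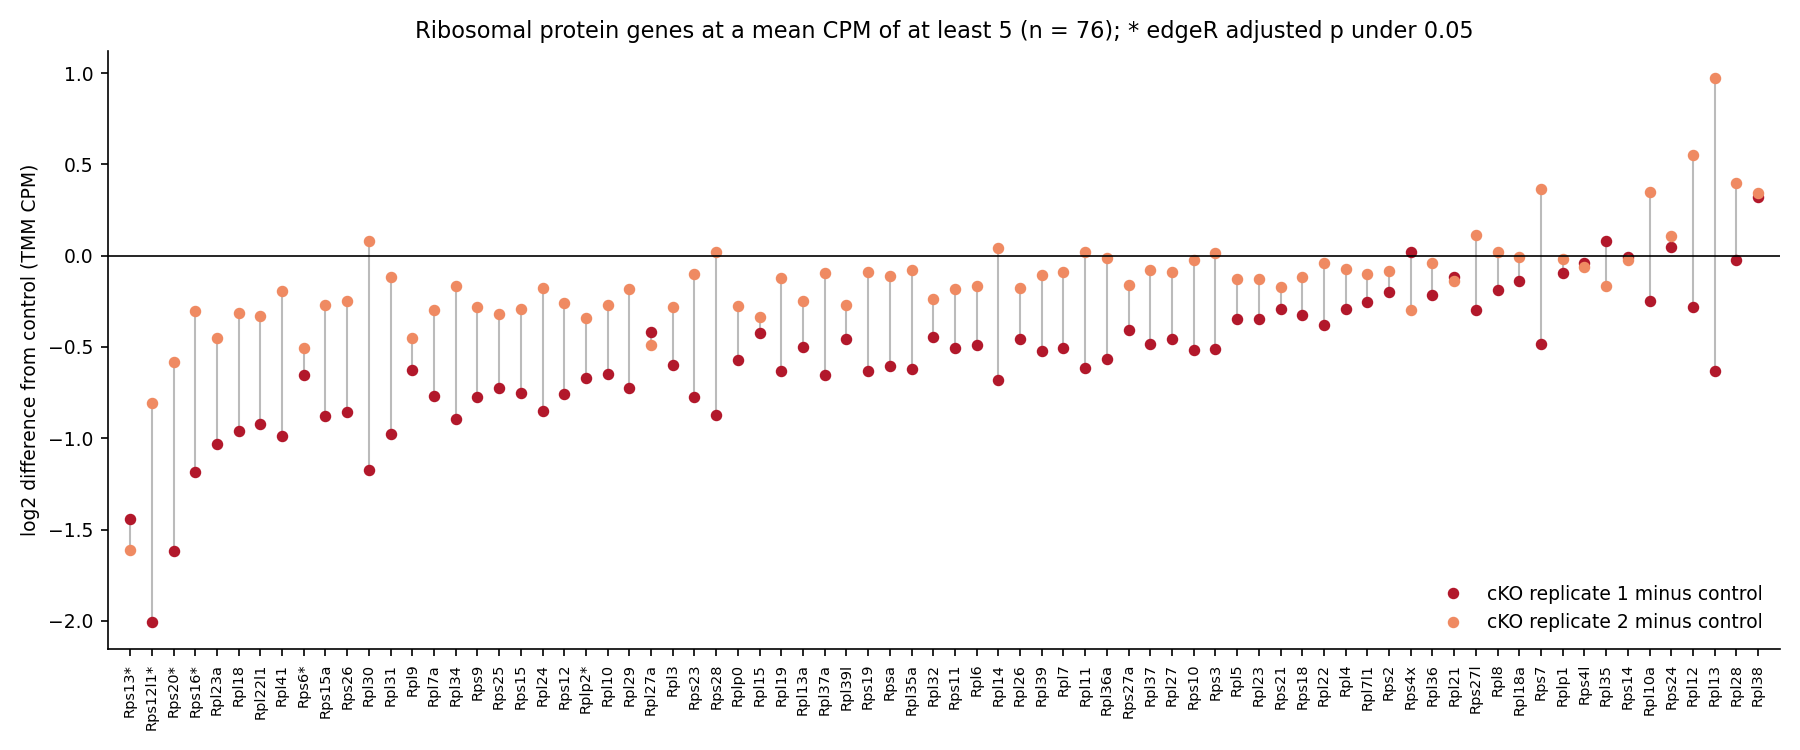
Log2 difference from the control in cKO replicate 1 (dark) and cKO replicate 2 (light) for 76 of the 79 members with a mean CPM of at least 5, ordered by the average of the pair, with 1 point per library and asterisks for an edgeR adjusted p under 0.05. For 69 of the 76 the point of cKO replicate 1 lies below that of cKO replicate 2, and 72 and 62 points lie below 0.

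In the edgeR fit over 15529 genes, 8 members fell in cKO and 0 rose. Over all genes tested, 2.01% were called lower and 3.12% higher. At an unadjusted p under 0.05 there were 32 lower members and 0 higher ones. Over all 15529 genes, 2406 had such a p in either direction, the base for each unadjusted count given here. DESeq2 called 1 lower (0.586% of its genes) and 0 higher (1.58%), and limma-voom 8 lower (2.32%) and 0 higher (2.99%). The median fitted log2 fold change of the members was -0.34, against 0.00 over all genes. Of the 8, 7 belong to the small subunit, among them Rps13, Rps20, Rps6, Rps16 and Rps12l1, and 1, Rplp2, to the large subunit. The number called depended on the settings of the fit. With column totals alone as the scaling, 1 member (Rps13) was called lower, against 0.431% of genes. A prior of 3 degrees of freedom left 0, against 0.0129%. The cause of these changes was not tested.

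Rps13 encodes a protein of the small subunit and hosts a small RNA in an intron (chr7:116331505-116334195, minus strand). It had 90, 82 and 247 counts, or 7.23, 6.41 and 19.9 CPM, so both cKO libraries were far below the control. It fell by 1.55 ± 0.23 on the log2 scale (SE, 2 cKO libraries against 1 control, edgeR adjusted p = 7.46e-05), and it is the 1 called member for which cKO replicate 2 was not the higher of the pair. The ratio to the control was 0.363 (95% interval 0.282 to 0.464) in the first cKO library and 0.322 (0.248 to 0.415) in the other, with intervals for counting error only.

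The Rps13 row can be read only beside its copies. The table holds 4 Rps13 pseudogene rows, and 17.0% of the 50-base fragments of the Rps13 messenger RNA occur in no other annotated gene. Over the 453 coding bases, Rps13-ps2 (chr7:88530446-88530898) differs from Rps13 at 0 positions, Rps13-ps1 (chr8:87047689-87048226) at 2, Rps13-ps4 (chr8:119602170-119602625) at 3 and Rps13-ps5 (chr11:61205720-61206175) at 12. The first 60 coding bases show how close they are. In that stretch Rps13-ps1, Rps13-ps2 and Rps13-ps4 are identical to Rps13, and capitals mark the bases of Rps13-ps5 that differ. Sequences are from GENCODE M21 on GRCm38.
Rps13: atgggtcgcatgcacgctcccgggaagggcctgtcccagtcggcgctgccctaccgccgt
Rps13-ps5: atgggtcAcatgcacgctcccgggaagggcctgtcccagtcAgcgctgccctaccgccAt

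Rps13-ps4 had 4.09, 20.3 and 51.4 CPM in cKO replicate 1, cKO replicate 2 and the control, and Rps13-ps2 had 35.5, 31.6 and 49.2 CPM. Rps13-ps1 had 6.74, 34.7 and 14.3 CPM and Rps13-ps5 1.20, 16.6 and 7.82 CPM. In the last pair cKO replicate 2 was the highest library, which is not so in the other rows. With the pseudogene rows added, Rps13 came to 682, 1403 and 1770 counts, or log2 differences of -1.38 in cKO replicate 1 and -0.38 in cKO replicate 2. How far cKO replicate 2 lies below the control thus depends on whether the pseudogene rows are added, while the difference in cKO replicate 1 is of like size either way. How near-identical reads were divided among the rows was not tested. The summed row was also lower in cKO, by 0.80 on the log2 scale (edgeR adjusted p = 0.0188, within a range of 4.29e-05 to 0.19 over the alternatives run for this gene). The call of the Rps13 row ended without the expression filter and with a prior of 3 degrees of freedom.

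**Figure D2:**
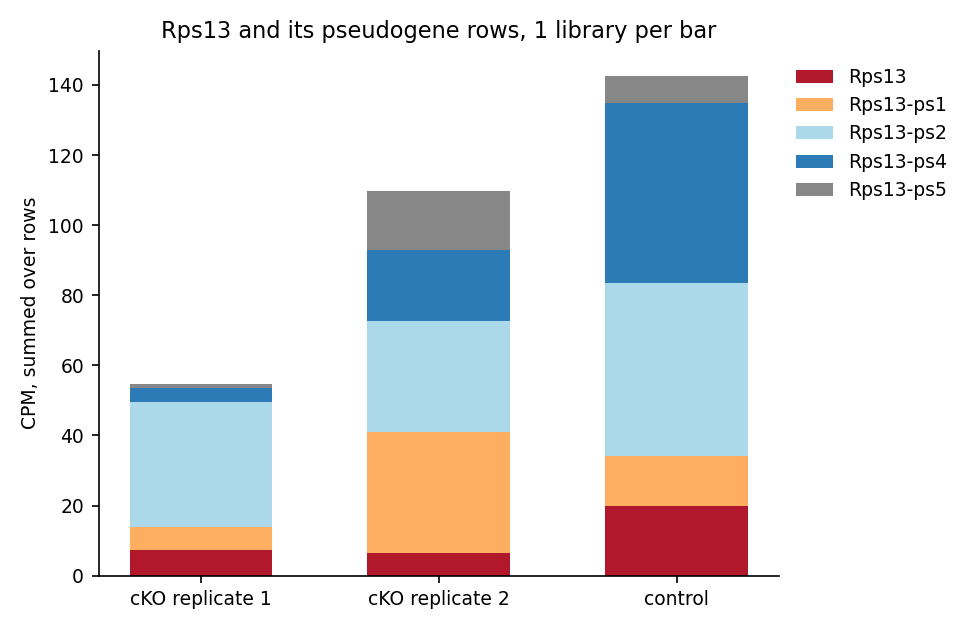
CPM of Rps13 and its 4 pseudogene rows stacked by library, 1 library per bar. The stack reaches 54.8 CPM in cKO replicate 1, 110 CPM in cKO replicate 2 and 143 CPM in the control, and the division among rows differs between libraries.

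Rps20, on the head of the small subunit (chr4:3831334-3835665, minus strand), had 614, 1297 and 1882 counts, or 49.3, 101 and 152 CPM. It fell by 1.01 ± 0.22 on the log2 scale (edgeR adjusted p = 0.00436), with log2 differences of -1.62 and -0.58. The call ended with column totals (adjusted p = 0.34), without the expression filter (0.63), with a prior of 3 degrees of freedom (0.662), with a robust prior (0.77) and with DESeq2 (1), and held under the remaining alternatives that give a p. It has 0 pseudogene rows in the table. Of the 50-base fragments of the transcript used for it, 92.4% are unique, the highest share among the 8. That transcript is 3706 bases long, against a median of 716 over the members, and may not match its reads. The cKO libraries were both below the control and far from each other.

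Rps6, whose protein is phosphorylated by S6 kinase downstream of mTOR (chr4:86854660-86857412, minus strand), had 512, 582 and 803 counts. It fell by 0.58 ± 0.14 on the log2 scale (edgeR adjusted p = 0.0146), and the cKO libraries lay close together at 41.1 and 45.5 CPM against 64.7 CPM. Of the 50-base fragments of Rps6, 15.4% are unique. With its 3 pseudogene rows added, Rps6 had 51.4, 63.7 and 85.3 CPM, so the cKO libraries then lay further apart. Its call ended with column totals, DESeq2, no expression filter and a prior of 3 degrees of freedom, within a range of 0.00929 to 0.453 over its alternatives. Rps16, which lies near the site where the initiator transfer RNA sits (chr7:28350652-28353155, plus strand), had 451, 856 and 1023 counts and fell by 0.68 ± 0.20, just inside the threshold (adjusted p = 0.0497). That call held with upper-quartile scaling and limma-voom and ended under the other alternatives that give a p, within a range of 0.0279 to 1. In Rps16 most of the difference was in cKO replicate 1, at -1.18 against -0.30. Rps25 and Rpl9 were just outside, with adjusted p of 0.0516 and 0.0542.

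Rps12l1 had 29, 71 and 122 counts and fell by 1.31 ± 0.35 on the log2 scale (edgeR adjusted p = 0.0269). The call ended with column totals, DESeq2, no expression filter, a prior of 3 degrees of freedom and a robust prior, within a range of 0.00981 to 0.654. The annotation calls it a processed pseudogene (chr7:56014016-56014414, plus strand), and 0% of its 50-base fragments are unique, so each of them also occurs in at least 1 other annotated gene. Which genes share them was not tested. Rps12, the gene of the same base symbol, had 67, 98 and 114 counts (adjusted p = 0.453). Both rows had the same order of libraries.

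**Figure D3:**
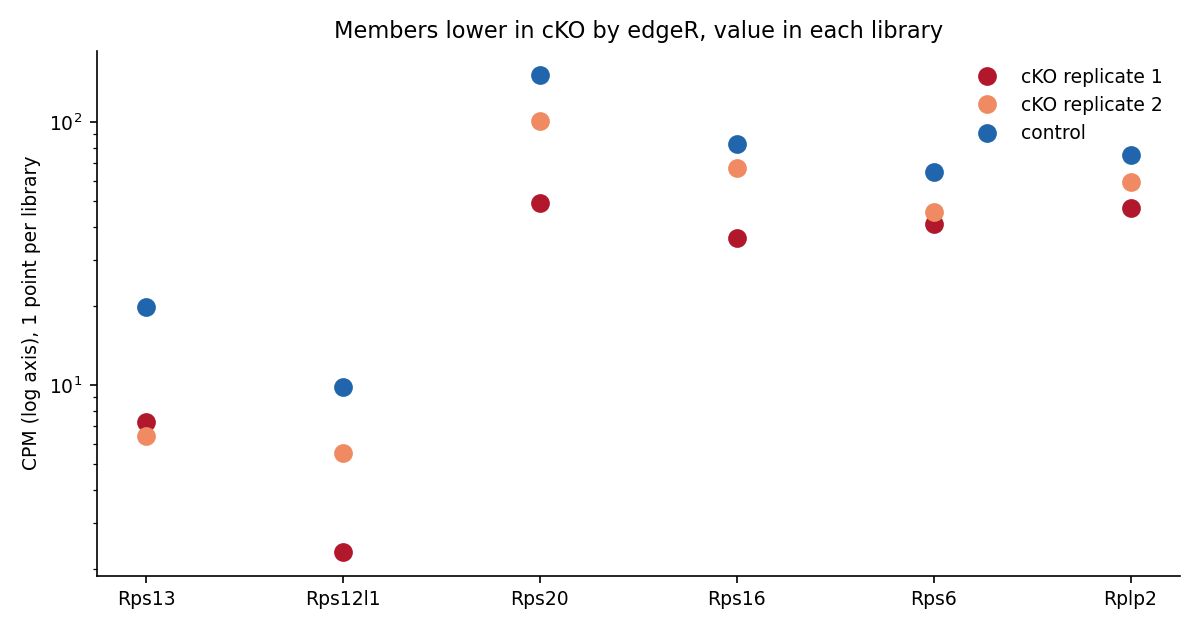
CPM of 6 called members on a log axis, with 1 point per library in cKO replicate 1, cKO replicate 2 and the control. The control is the highest point for each of the 6, and cKO replicate 1 is the lowest for all but Rps13.

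The stalk proteins were Rplp0, Rplp1 and Rplp2. Of these, 1 was called by edgeR and 0 by DESeq2 or limma-voom. Rplp2 (chr7:141447370-141451585, plus strand) had 587, 758 and 931 counts in cKO replicate 1, cKO replicate 2 and the control and fell by 0.50 ± 0.15 on the log2 scale (edgeR adjusted p = 0.0467). That call held under 1 alternative, upper-quartile scaling (0.0311), and ended under the other alternatives that give a p, with adjusted p from 0.0588 with limma-voom to 0.704 with DESeq2. Its partner Rplp1 had 7983, 8633 and 8491 counts, a log2 fold change of -0.06 ± 0.16 (adjusted p = 0.923), and its control value lay between the cKO values in counts. Rplp0, which anchors both to the large subunit, was the most abundant member in CPM, with 19208, 24239 and 28410 counts and a log2 fold change of -0.41 ± 0.17 (adjusted p = 0.195). The difference between these genes was not tested. Rpsa, the laminin receptor protein of the small subunit, had 3542, 5112 and 5361 counts (adjusted p = 0.368), and Rps27a, which is made as a fusion with ubiquitin, had 161, 196 and 213 (adjusted p = 0.607).

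The most abundant members showed the same order of libraries as the group in CPM. After Rplp0, the highest mean CPM belonged to Rpl4, Rplp1 and Rpl13a among others. Rpl4 had 885, 1030 and 1085 CPM, and Rpl13a 480, 572 and 680 CPM. Together the 5 most abundant members made up 44.5% of the members' counts in the control and 45.1% in cKO replicate 1. Their adjusted p values in edgeR were 0.678 for Rpl4 and 0.244 for Rpl13a.

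Per kilobase of transcript, the members' levels in the control ran from 3.54 CPM per kb for Rpl17 to 1686 CPM per kb for Rplp0, with a median of 57.3. Proteins held in equal copies in the ribosome thus had very unequal counts. Across the 77 protein-coding members with a mean CPM of at least 5, this level and the share of unique 50-base fragments had a Pearson r of 0.41 and a Spearman rho of 0.41, in 1 library and across genes, which are not independent replicates. Levels of single members are therefore not compared as amounts of messenger RNA.

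The members with known roles outside the ribosome comprised 9 genes, of which 1, Rps6, fell and 0 rose. At an unadjusted p under 0.05 there were 3 lower and 0 higher, DESeq2 called 0 in each direction, and limma-voom 1 lower. Rpl5 and Rpl11, which bind and restrain the p53 ligase MDM2, had 359, 429 and 455 counts and 99, 159 and 152 counts (edgeR adjusted p = 0.589 and 0.723). Rpl11 was low in cKO replicate 1 and level with the control in cKO replicate 2. Rpl38, whose loss in mice alters translation of Hox messenger RNAs and the skeleton, had 209, 218 and 166 counts. Its log2 fold change was 0.34 ± 0.22 (edgeR adjusted p = 0.513), and its own row lay above the control in both cKO libraries without passing the test. With its pseudogene rows added, Rpl38 had log2 differences of -0.18 in cKO replicate 1 and 0.26 in cKO replicate 2.

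Rps19 and Rps24 are mutated in Diamond-Blackfan anaemia, an inherited failure of red cell production. Rps19 had 1459, 2181 and 2253 counts (edgeR adjusted p = 0.353), and Rps24 had 1895, 2029 and 1828 (adjusted p = 0.877). Rps19 followed the group in being low in cKO replicate 1, and Rps24 did not. Rps25, used by some viral entry sites for ribosomes, had 561, 764 and 924 counts, and Rps3, which also acts in DNA repair, had 2951, 4372 and 4197 (adjusted p = 0.615). Rpl22 had 1999, 2601 and 2591 counts (adjusted p = 0.623). Rps14, on chromosome 18, was level in all libraries at 4569, 4634 and 4567 counts (adjusted p = 0.983).

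Among the 8 paralogs whose symbols end in l or l1, 6 had counts, of which 1, Rps12l1, fell and 0 rose. At an unadjusted p under 0.05 there were 2 lower and 0 higher, DESeq2 called 0, and limma-voom 1 lower. Rpl22l1 had 179, 278 and 340 counts (edgeR adjusted p = 0.133), with log2 differences of -0.92 and -0.33 beside -0.38 and -0.04 for its parent Rpl22. Rpl39l had 170, 199 and 233 counts, with -0.46 and -0.27 beside -0.52 and -0.10 for Rpl39. Paralog and parent were thus on the same side of the control in these pairs.

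Rpl7l1 had 925, 1057 and 1097 counts, with log2 differences of -0.25 and -0.10 beside -0.51 and -0.09 for Rpl7. Rps27l, a p53 target, had 738, 1006 and 903 counts, with -0.30 and 0.11. Its parent Rps27, at 29, 56 and 45 counts, was among the 3 tested members under a mean CPM of 5. Rps4l, which the annotation calls a transcribed processed pseudogene, had 559, 566 and 573 counts and was level across the libraries. Rpl10l and Rpl3l, at 0 counts, are known from testis and from striated muscle.

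The 4 members on the X chromosome were examined because the libraries differ in sex-linked RNA. Xist, the RNA of the inactive X, had 2, 10081 and 1 counts. The Y-linked gene Ddx3y had 680, 0 and 732 counts, Uty 219, 0 and 201, and Kdm5d 505, 0 and 460. The cKO libraries therefore differ from each other, and cKO replicate 2 from the control, in sex-linked transcripts as well as in the values below. Xist without Y-linked counts is the female pattern, found for cKO replicate 2 alone. The male pattern was found for cKO replicate 1 and the control, so the cKO pair did not share an animal. Of the 4 members, 0 were called in either direction by edgeR, DESeq2 or limma-voom, with 1 lower at an unadjusted p under 0.05. Rps4x, which escapes X inactivation in humans, had 2796, 2305 and 2751 counts, with log2 differences of 0.02 and -0.30, and it differed from the group's order in having cKO replicate 2 lowest. Rpl10, Rpl36a and Rpl39 had cKO replicate 1 lowest, with -0.65 and -0.27, -0.57 and -0.01, and -0.52 and -0.10. The part of sex in the difference between the cKO libraries was not tested.

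The messenger RNAs of these genes are short, with a median of 716 bases, and short transcripts of other genes were also low in cKO replicate 1. Among other protein-coding genes with a mean CPM of at least 5, the median log2 difference in cKO replicate 1 was -0.50 over the 47 genes of up to 500 bases, -0.33 over the 199 of 500 to 750 bases and -0.22 over the 308 of 750 to 1000 bases. It was -0.13 up to 1500 bases, -0.01 up to 3000 bases and 0.09 above that. The difference from the control thus ran with transcript length in cKO replicate 1. In cKO replicate 2 the same classes gave -0.06, -0.07, -0.02, -0.005, 0.02 and 0.01.

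The members had medians in cKO replicate 1 of -0.62 over 17 genes of up to 500 bases, -0.64 over 22 of 500 to 750 bases, -0.61 over 19 of 750 to 1000 bases, -0.50 over 12 of up to 1500 bases and -0.32 over 6 of up to 3000 bases. In each of these classes the members' median was below that of the other genes, most narrowly in the shortest. With each member centred on the other genes of its length class, the median went from -0.58 to -0.30 in cKO replicate 1 and from -0.13 to -0.11 in cKO replicate 2, and 55 of the 82 were below the centre in both libraries. With the length trend removed in the edgeR fit, 6 members were called lower, with 2.34% of all genes called lower. Rplp2 and Rps16 were no longer called there. Rps20 stands alone above 3000 bases because its representative transcript is long, so its class may not match its reads. Across the 77 protein-coding members with a mean CPM of at least 5, length and the difference in cKO replicate 1 had a Pearson r of -0.05. The Spearman rho was 0.22. Both values include Rps20. No such correlation was computed for the other genes, so the members and the other genes are not compared on this measure. The part of length in the group's difference was not tested.

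**Figure D4:**
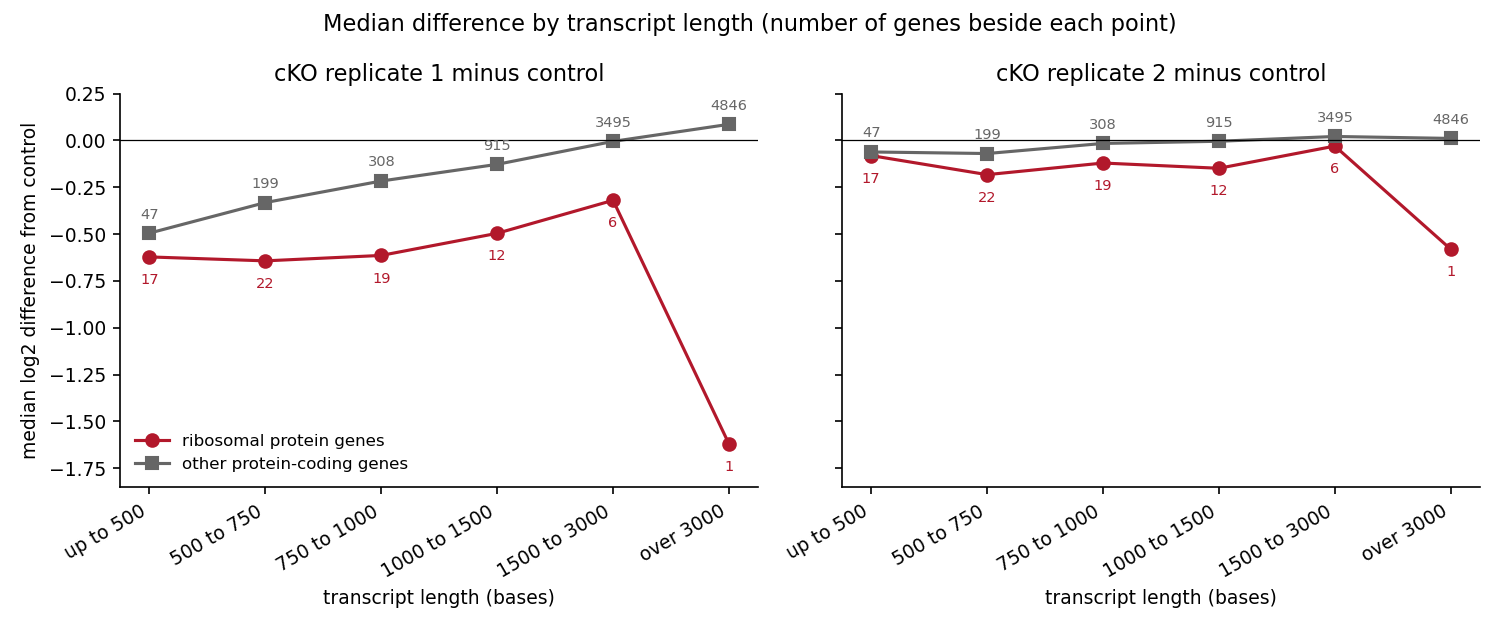
Median log2 difference from the control by class of transcript length, for the ribosomal protein genes (circles) and other protein-coding genes (squares), with the number of genes beside each point and 1 panel per cKO library. In cKO replicate 1 other genes run from -0.50 in the shortest class to 0.09 in the longest, and the members lie below them in every class; Rps20 is the single member above 3000 bases.

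Shared sequence was a second property examined. In the lowest class, with up to 20% unique 50-base fragments, 17 members had medians of -0.63 and -0.26 in cKO replicates 1 and 2, and in the highest, above 80%, 9 members had -0.46 and -0.10. Other protein-coding genes in the lowest class had -0.09 and 0.001. The 14 members with at least 90% unique 100-base fragments had -0.41 and -0.10. The members with little shared sequence were therefore also below the control in both libraries in the median. Among the 14, Rps27l, Rpl8 and Rps3 were above the control in cKO replicate 2. When each member was summed with its own pseudogene rows, 13 were called lower and 0 higher (2.18% and 3.26% of all rows), and the medians were -0.56 and -0.17.

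The pseudogene rows themselves followed the members. Of 147 tested, 16 fell and 3 rose in edgeR, with median log2 differences of -0.71 and -0.15 in cKO replicates 1 and 2. Rpl10-ps3 had the smallest p, with 201, 297 and 793 counts (log2 fold change -1.70 ± 0.18, adjusted p = 3.04e-07). Of its 50-base fragments, 3.89% occur in no other annotated gene. Members that host small RNAs in their introns, 31 in all, had medians of -0.52 and -0.17, and the 51 others that were tested had -0.61 and -0.10.

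Among ribosomal protein genes outside the symbol rule, Rps3a1 had 890, 1310 and 1639 counts and fell by 0.60 ± 0.16 on the log2 scale (edgeR adjusted p = 0.0228). Fau had 136, 272 and 202 counts (adjusted p = 0.991) and Rpl36al 458, 595 and 551 (adjusted p = 0.867). In Fau and Rpl36al the control lay between the cKO libraries.

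Other genes of translation were set beside the members with the same fit. The mitochondrial ribosomal protein genes, which serve the separate ribosome of mitochondria, had medians of -0.30 and -0.02, and 0 of 76 were called in either direction. At an unadjusted p under 0.05 there were 7 lower and 2 higher, DESeq2 called 0, and limma-voom 1 lower. They too were lower in cKO replicate 1, by less than the cytosolic genes in the median. Other genes with a TOP motif had medians of -0.25 and -0.04, and 1 of 23, the initiation factor subunit Eif3f, fell (1809, 1890 and 2549 counts, log2 fold change -0.49 ± 0.14, edgeR adjusted p = 0.0474).

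The hosts of snoRNAs that are not ribosomal protein genes had medians of -0.63 and -0.46, and 3 of 18 fell: Gas5, Snhg12 and 0610007N19Rik. Gas5, a host with a TOP motif, had 1102, 1244 and 1692 counts (log2 fold change -0.55 ± 0.13, edgeR adjusted p = 0.0118). Snhg12 had 205, 248 and 465 counts (-1.06 ± 0.19, adjusted p = 0.000464). In both, the cKO libraries were close to each other and below the control.

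Initiation factors had medians of -0.09 and 0.05 with 1 of 36 lower, and elongation and release factors -0.16 and -0.06 with 0 lower and 1 of 15 higher. The 1 that rose was Eef1a2, an elongation factor typical of muscle and nerve, with 324, 240 and 138 counts (log2 fold change 1.01 ± 0.23, edgeR adjusted p = 0.00882). Ribosome assembly factors had medians of 0.05 and 0.11 with 1 of 71, Nop10, lower. RNA polymerase I subunits had -0.07 and 0.03, and 0 of 20 were called; at an unadjusted p under 0.05 there were 1 lower and 2 higher, DESeq2 called 0, and limma-voom 1 higher. The assembly and RNA polymerase I lists thus did not share the members' median.

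Among regulators of translation, 0 of 30 fell and 2 rose. Eif2ak2, the interferon-induced kinase PKR that halts initiation, had 2188, 2002 and 373 counts (log2 fold change 2.46 ± 0.16, edgeR adjusted p = 2.92e-11). Myc, a transcription factor that drives ribosome production, had 859, 927 and 591 counts (0.57 ± 0.14, adjusted p = 0.014). At an unadjusted p under 0.05, 4 of these regulators were lower and 4 higher, DESeq2 called 1 higher, and limma-voom 2 higher. Both genes that rose had cKO libraries close to each other, in contrast to most ribosomal protein genes.

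**Figure D5:**
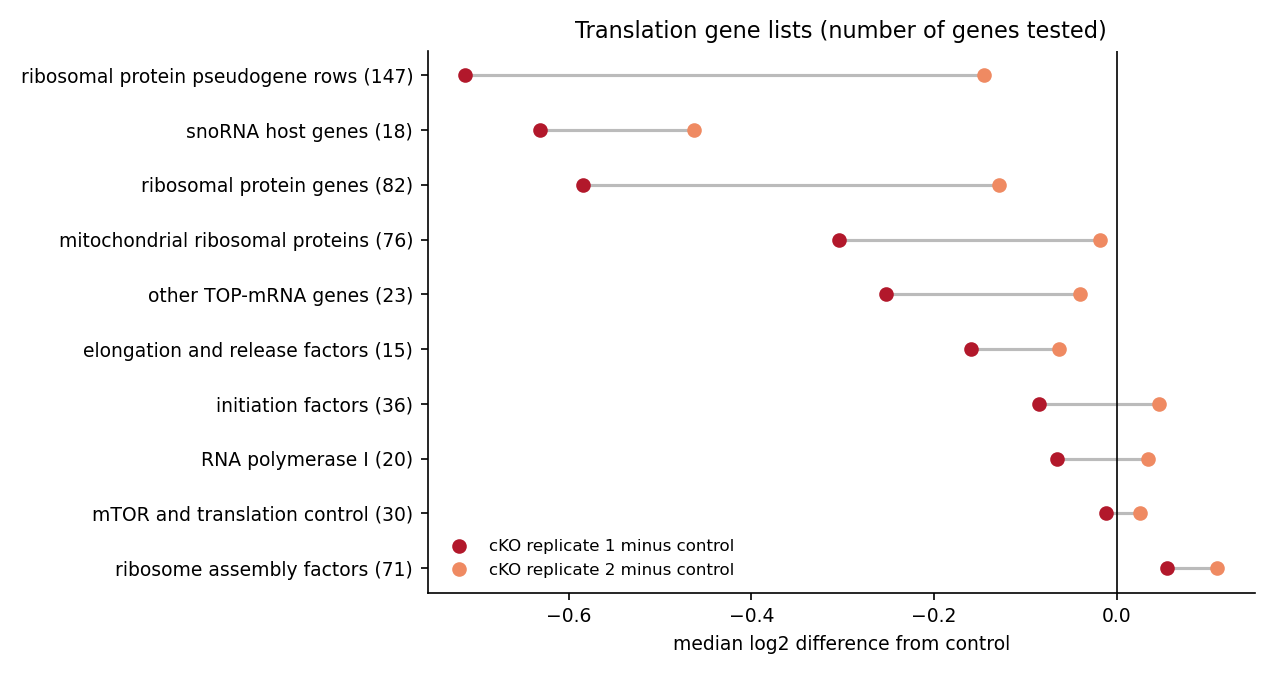
Median log2 difference from the control of each gene list in cKO replicate 1 (dark) and cKO replicate 2 (light), with the number of genes tested in brackets. The ribosomal protein genes lie at -0.58 and -0.13, near their pseudogene rows, and the assembly factors lie above 0 in both libraries.

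Mitochondrial rows took 0.915%, 1.07% and 1.11% of counts in cKO replicate 1, cKO replicate 2 and the control, the same order of libraries as the members' share and the remaining ribosomal RNA. Their part in the result was not tested.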

How the data were processed

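Bulk RNA was sequenced in 2 cKO libraries and 1 control library. The authors deposited raw counts in 1 table, with a row for each gene symbol and a column for each library, per the file headers. The libraries were depleted of ribosomal RNA and made with an Ion Proton kit, per the labels' protocols. The submitters' processing notes name the builds GRCm38 and GRCh37 without a role. The sources used here do not name the aligner, the counter, the gene annotation or the strand setting. Reads shared between near-identical genes, pseudogenes or overlapping genes may have been divided in unknown ways.

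Counts were tested with edgeR 4.0.16 in R 4.3.3 (TMM, filterByExpr, quasi-likelihood F test, Benjamini-Hochberg over 15529 genes, threshold 0.05). The fit has 1 residual degree of freedom, and the prior degrees of freedom were 22.6. The SE was taken as the absolute log2 fold change over the root of F. The fit was tested on simulated data. Each cKO library was also compared with the control on log2 CPM with a prior count of 2, without a test. Fold counts used 1.5-fold at a mean CPM of at least 5. Shares have exact (Clopper-Pearson) 95% intervals. DESeq2 1.42.0 and limma 3.58.1 (voom) were alternatives, beside other scalings, filters, priors, folds, paralog and pseudogene settings and leaving out each cKO library. Positions, transcript lengths and fragment uniqueness are from GENCODE M21 (30936 symbols matched), using a CCDS principal transcript, and promoter windows are from RefSeq. The members, the lists and the tests were chosen with earlier results of these data known.

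Named members are the stalk genes, Rpsa and Rps27a, the l and l1 paralogs beside their parents, the X-linked members, up to 10 called members in each direction, the 5 most negative and most positive with both cKO libraries on one side, the 5 most abundant, and 9 genes with known roles outside the ribosome. Some genes that the rules name are not reported here. Up to 4 genes with the smallest p were eligible in each other list. Rpl9, Rpl13, Rpl17, Rps14 and the members outside the symbol rule were named after their values were seen. Marker lists covered chondrocytes, osteoblasts, fibroblasts and synovium, leukocytes, endothelium, mural cells, skeletal muscle, adipocytes and red blood cells. By edgeR, 8 of 8 chondrocyte markers, the osteoblast marker Ibsp and, upward, the fibroblast marker Thy1 were called. In the remaining 6 lists 0 were called, with 2 leukocyte and 1 mural marker at an unadjusted p under 0.05.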

Additional observations from a re-analysis of the deposited data

How the results depend on the processing

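No paired analysis was possible because there is 1 control library and its label links it to neither cKO library. The alternatives that remove a length trend, use a robust prior, sum pseudogene rows in the test or restrict members by uniqueness or gene type were chosen after seeing the data. The count of members lower in cKO, 8, became 1 with column totals only and 1 with DESeq2, 0 without the expression filter, 0 with prior degrees of freedom of 3, 3 with a robust prior and 13 with pseudogene rows summed. It was between 6 and 11 with the RLE and upper-quartile scalings, limma-voom and the length-trend offsets, and the count of higher members was 0 in all 10 alternatives. The lower and higher shares of all genes were 0.431% and 1.22% with column totals, 0.0457% and 0.482% without the filter and 0.0129% and 0.509% with prior degrees of freedom of 3. The medians stayed below 0 in every alternative run. The median fitted log2 fold change, -0.34, was -0.23 over the members with mostly unique fragments and -0.22 with the length trend removed. With 1 cKO library left out no fit was run, and the medians are the single-library differences given above, -0.58 and -0.13.

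Members lower by at least 1.5-fold in both cKO libraries numbered 3, against 1 at 2-fold (0.494% of genes) and 12 at a difference of 25% in place of 50% (7.45%), and leaving out 1 cKO library gave between 3 and 38. The higher count, 0, was 1 at 25% (8.51%) and between 0 and 1 with 1 library left out. Without mitochondrial and ribosomal RNA rows the members' shares were 0.884%, 1.12% and 1.23% in cKO replicate 1, cKO replicate 2 and the control, and with pseudogene rows 1.23%, 1.58% and 1.73%. Of the other translation genes, 5 lower calls became 3 with RLE scaling, 0 with column totals, 1 with DESeq2, 0 without the filter and 0 with prior degrees of freedom of 3. The 3 higher calls became 1 with column totals, with DESeq2, without the filter and with prior degrees of freedom of 3. The median of the regulators of translation, -0.01, was 0.0252 without cKO replicate 1 and -0.0118 without cKO replicate 2, each from the remaining library's differences without a fit. The cause of these differences was not tested. Members under 100 counts have wide counting intervals, and with 1 control library its own departures cannot be told apart from genotype.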

Other observations

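The 8 members that fell lie on 2 chromosomes: 5 on chromosome 7 (of 15 members tested there) and 3 on chromosome 4 (of 5). This was noticed after the values were seen, and it belongs to the main setting. Rpl9, on chromosome 5, was also called with upper-quartile scaling, limma-voom, a robust prior and pseudogene rows summed. Upper-quartile scaling added 3 members in all (2.43% of genes called lower), Rps25 on chromosome 9 among them. Summing pseudogene rows added 7 (2.18% of rows called lower), among them Rpl10 on the X chromosome and Rps27a on chromosome 11. The restriction to chromosomes 7 and 4 thus did not hold under these settings. RLE scaling, column totals, DESeq2 and the length-trend offsets added 0 members. Of the 50-base fragments of Rps12l1, counted on chromosome 7, 0% are unique. Over all genes tested, 2.49% were called lower on chromosome 7 and 2.77% on chromosome 4, within the range of 1.18% to 3.33% over the 19 chromosomes that hold members. The members' medians on chromosome 7 were -0.67 in cKO replicate 1 and -0.28 in cKO replicate 2, and on chromosome 4 -0.65 and -0.41. On chromosome 11, where Kdm6b lies, 0 of 7 members fell, with medians of -0.46 and -0.13.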
